A study of Mus musculus with 37 samples.

Results

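Translation elongation and initiation factors are the proteins that load ribosomes onto mRNA and carry them along it. The members described here were 10 rows of the deposited count table, chosen by their human Ensembl gene ID before the dot, out of 60708 rows. In the order of the list they stood for EEF1A1 (ENSG00000156508.19), EEF1B2 (ENSG00000114942.14), EEF1G (ENSG00000254772.10), EEF1D (ENSG00000104529.18), EEF2 (ENSG00000167658.16), EIF4A1 (ENSG00000161960.16), EIF4A2 (ENSG00000156976.17), EIF1 (ENSG00000173812.11), EIF5A (ENSG00000132507.18) and PABPC1 (ENSG00000070756.17). The symbols came with the list of IDs, since the count table carries no names.

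The cells were splenocytes of wild-type FVB mice, exposed for 48 h either to RAW264.7 cells or to medium those cells had conditioned. RAW264.7 is a single transformed mouse line that resembles macrophages and stands for primary ones only in part. Before this the RAW264.7 cells had spent 72 h at 21% oxygen (normoxia) or 1% oxygen (hypoxia), with or without SPP1 (osteopontin, a secreted protein that binds CD44 and integrins). The question was what macrophages primed by low oxygen or SPP1 do to splenocytes. The splenocytes received RAW264.7 medium (11 libraries, called medium here), unwashed RAW264.7 cells (12 libraries, cells) or RAW264.7 cells after a media wash (12 libraries, washed), and each mode was split by oxygen and by SPP1 into 4 groups. The treatment label of the 2 naive libraries said naive and gave no exposure, so that whether they had been cultured is not known here. Of the 13 groups, 11 had 3 libraries, while the naive group and medium normoxia without SPP1 had 2. Brefeldin A, which blocks protein secretion, was added before collection according to the labels of all 37 libraries.

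Initiation begins when the small ribosomal subunit, helped by EIF1, which checks the match to the start codon, scans an mRNA that the helicases EIF4A1 and EIF4A2 have unwound. PABPC1 coats the poly(A) tail and binds the cap complex, which joins both ends of the mRNA. In elongation, EEF1A1 delivers the aminoacyl-tRNA, EEF1B2, EEF1D and EEF1G reload it with GTP, EEF2 moves the ribosome to the next codon, and EIF5A helps at stretches the ribosome translates slowly. Resting lymphocytes translate little, and activation raises translation. Several of these mRNAs, EEF1A1, EEF2 and PABPC1 among them, belong to the TOP class, whose translation follows mTOR.

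For members that differed between modes and passed the filter in every mode, the mouse start site is shown as a reference for the gene behind the count. RefSeq promoter entries on GRCm38.p6 existed for 7 of the 10 members. The lines give 60 bases on the strand of the transcript, 30 before the start and 30 from it, with the TATA-like motif TATANAA in capitals where it occurs.
Eef1a1, chr9:78481695-78481754, minus strand: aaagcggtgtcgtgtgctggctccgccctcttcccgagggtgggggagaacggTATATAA
Eef2, chr10:81176601-81176660, plus strand: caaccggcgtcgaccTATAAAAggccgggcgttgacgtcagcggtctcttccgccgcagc
Eif1, chr11:100319919-100319978, plus strand: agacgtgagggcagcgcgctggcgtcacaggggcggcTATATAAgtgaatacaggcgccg
Eif4a2, chr16:23107438-23107497, plus strand: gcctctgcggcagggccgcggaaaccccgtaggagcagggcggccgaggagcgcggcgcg
The motif was chosen after these windows were looked at. It occurred in 3 of the 7 members' windows (Eef1a1, Eef2 and Eif1), and in 1.62% of 32851 windows of the same length on the transcript strand, or 2.24% on either strand. In Eif4a2, Eif4a1, Eef1b2 and Eif5a these letters were found on neither strand, also not in the 300-base entry. Its first base lay 15 bases before the annotated start in Eef2 but 8 and 24 bases into the transcript in Eif1 and Eef1a1. No measurement in these libraries bears on the promoters, and Pabpc1, Eef1d and Eef1g are named only.

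The libraries hold the 3′ ends of polyadenylated mouse transcripts, counted after alignment to the human genome. A value therefore counts mouse reads that matched the human gene, reads can fall on related or processed copies (EEF1A1 has many), and the share of a mouse transcript that was counted is unknown. Total counts ran from 631574 to 1337314 per library. The depth behind the members was very unequal. EIF1 had 2329 to 6674 counts per library, PABPC1 290 to 4173 and EIF4A2 554 to 3136. EEF2 had 11 to 97 counts, EEF1A1 12 to 70, EEF1B2 4 to 33 and EIF5A 1 to 19. EEF1D had 36 counts in all, in 22 of the 37 libraries. EEF1G and EIF4A1 had 0 counts in every library, which allows at most 3 counts in all, or 0.0752 CPM (counts scaled to a common library size). This covers counting error only, and in mouse reads on a human genome it limits the reads counted, not the expression of the gene. Together the members took 0.532% to 0.974% of a library's counts.

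The low filter kept 5193 of the 22657 IDs with a count, and 7 of the 10 members, without EEF1D, EEF1G and EIF4A1. EIF5A passed it through the medium libraries alone, 7 of which exceeded the minimum count of 10 (scaled by total counts) and 0 elsewhere, so that it had to differ between modes if kept. A library's 10 largest IDs summed to a mean share of 15.2% ± 0.659 (SD, n = 11) in medium, 20.2% ± 1.25 (SD, n = 12) in cells and 20.9% ± 1.99 (SD, n = 12) in washed. Libraries scaled by total counts instead of TMM, edgeR's standard scaling, moved the median log2 fold change of all IDs by -0.28 in washed against medium and by -0.17 in cells against medium. Of the libraries, 4 stood apart on the second principal component (replicates 1 and 2 of washed normoxia SPP1, replicate 1 of washed hypoxia SPP1 and replicate 2 of cells hypoxia without SPP1) and 2 medium libraries on the first (hypoxia without SPP1 replicate 1, normoxia without SPP1 replicate 3). Calls that change without them are given beside each result. Splenocyte and macrophage markers could not be looked up, since the human IDs could not be paired with names, so that how much RNA of RAW264.7 cells the cells and washed libraries carry was not tested.

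The first question was how the factors differed between naive splenocytes and those given medium or RAW264.7 cells, and between the modes. No group was labelled as cultured for 48 h without RAW264.7 medium or cells. Against naive, exposure and time in culture therefore cannot be told apart. PABPC1 rose in all 3 modes against naive splenocytes and rose further from medium to either form of contact. EIF4A2 rose from medium to cells and to washed, and EIF1 from medium to washed. EEF1A1 rose against naive in every mode, while EEF1B2 passed no test in any comparison. In edgeR's quasi-likelihood F test with Benjamini-Hochberg adjustment over all 5193 IDs, IDs were called changed at an adjusted p under 0.05. Against naive, 3 of the 7 members tested were called in medium (EEF1A1, EIF5A, PABPC1), where 32.4% of all IDs were called. EIF5A, which passed the filter through medium alone, is included in this count and in the counts against medium below. Its calls carry no weight there. In cells 2 were called (EEF1A1, PABPC1) against 27.3% of all IDs, and in washed 3 (EEF1A1, EIF4A2, PABPC1) against 34.5%. All of these were increases, a direction called in 17.1%, 13.9% and 17.5% of all IDs. Against medium, 4 members were called in cells (EEF1A1, EIF4A2 and PABPC1 higher, EIF5A lower) beside 48.7% of all IDs (23.4% higher, 25.3% lower), and 5 in washed (EEF2, EIF4A2, EIF1 and PABPC1 higher, EIF5A lower) beside 58.7% (28.6% higher, 30.2% lower). Washed against cells gave 0 calls among the members and 7.24% among all IDs (4.16% higher, 3.08% lower), and 1 member, EIF1, had an unadjusted p under 0.05, as did 23.9% of all IDs. DESeq2 also called 0 members there. The naive libraries enter 3 of these comparisons and the medium libraries 3, so the comparisons are not independent. The median log2 fold change of the 7 members, EIF5A included, against medium was 0.42 in cells and 0.53 in washed, and that of all IDs -0.02 and -0.03. In bulk RNA, fewer cells of a type and less RNA per cell cannot be told apart.

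**Figure D1:**
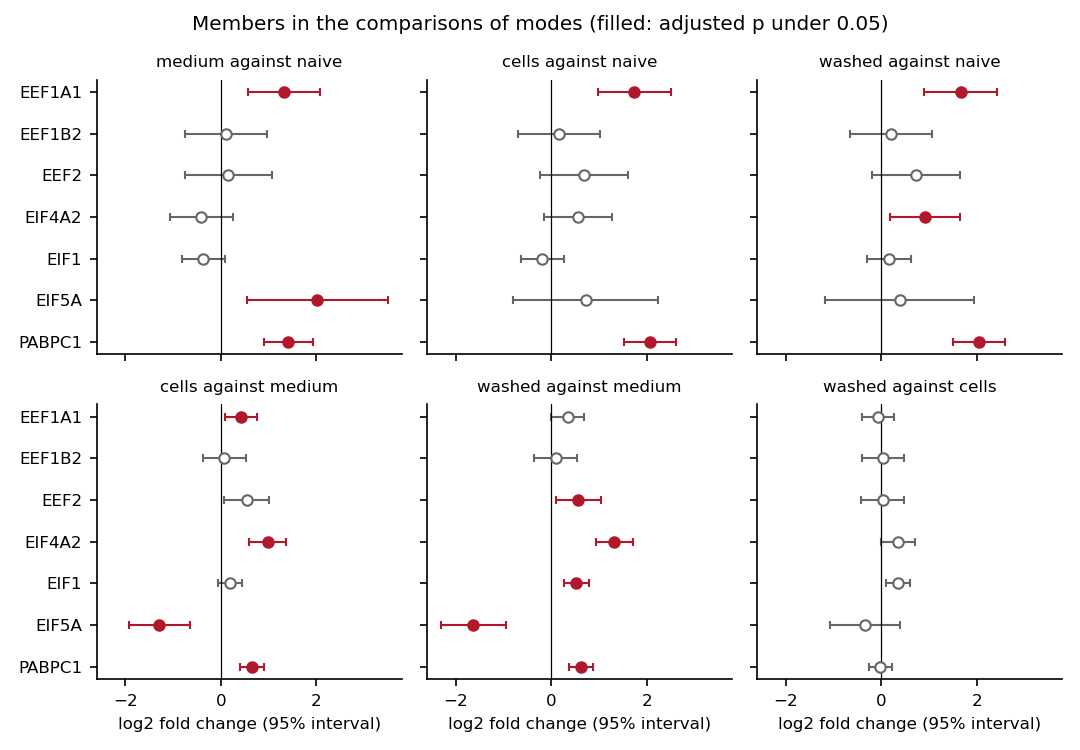
Log2 fold change (x axis, 95% interval) of the 7 members tested in the 6 comparisons of modes from edgeR, with filled red points for an adjusted p under 0.05. PABPC1 and EEF1A1 lie to the right of 0 in all 3 comparisons with naive, EIF4A2 moves most among the increases against medium, and no member is filled in washed against cells.

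EIF1, the start codon factor, had the most counts behind it. Naive splenocytes held 4169 and 4388 CPM. Medium ran from 2379 to 4656 CPM with a median of 3097, cells from 2603 to 5564 with a median of 3570, and washed from 3788 to 7027 with a median of 4604. The naive values lay inside the range of every mode, and medium and washed overlapped. Mean levels were 3291 ± 653 CPM (SD, n = 11) in medium, 3761 ± 795 (SD, n = 12) in cells and 4795 ± 940 (SD, n = 12) in washed. EIF1 rose 1.44-fold from medium to washed (log2 fold change 0.53, SE 0.13, edgeR adjusted p = 0.000465), and with total-count scaling the log2 fold change was 0.24 (adjusted p = 0.0540). From medium to cells the change was 0.19 (SE 0.12, adjusted p = 0.225), and it was called without the 2 medium libraries apart on the first component (0.0359) or without medium normoxia without SPP1 replicate 3 alone (0.0259). Against cells, washed was 1.27-fold higher (log2 0.34, SE 0.12, adjusted p = 0.0725), and this passed the threshold without any one of 4 libraries. Those were cells hypoxia SPP1 replicate 1 (adjusted p = 0.0371), cells hypoxia without SPP1 replicate 2 (0.0153), washed normoxia SPP1 replicate 3 (0.0498) and replicate 3 of washed hypoxia SPP1 (0.0278). No comparison of EIF1 with naive was called, with log2 fold changes of -0.37 in medium, -0.19 in cells and 0.16 in washed.

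EIF4A2, the helicase subunit of the cap-binding complex, was lower in medium than in either form of contact with RAW264.7 cells. It had 1058 and 1189 CPM in naive splenocytes. The medium libraries ran from 444 to 1852 CPM (median 874), the cells libraries from 1149 to 2500 (median 1476) and the washed libraries from 1216 to 3137 (median 2105). Of the 11 medium libraries, only hypoxia without SPP1 replicate 1, at 1852 CPM and among those apart on the first component, was above the lowest of the cells libraries. Against medium, EIF4A2 was 1.97-fold higher in cells (log2 0.98, SE 0.19, edgeR adjusted p = 5.68e-05) and 2.50-fold higher in washed (log2 1.32, SE 0.19, adjusted p = 3.37e-07). Both calls held in each of 31 alternatives, over which the log2 fold change ran from 0.80 to 1.29 and from 1.04 to 1.62. Washed against cells gave 0.35 (SE 0.18, adjusted p = 0.236). Against naive, the log2 fold change was -0.41 in medium and 0.56 in cells, neither called, and 0.91 in washed (SE 0.36, adjusted p = 0.0483).

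That last call was lost in 14 of 22 alternatives. With RLE scaling the adjusted p was 0.0804, with total counts 0.225, with DESeq2 0.0647 and with the replicate number as a block 0.0616. It was also lost without naive replicate 1 (0.180) or 2 (0.204). Among the washed libraries it was lost without hypoxia without SPP1 replicate 1 (0.0575) or 3 (0.0840), hypoxia SPP1 replicate 1 (0.0767) or 3 (0.0501), normoxia without SPP1 replicate 1 (0.0595) or 2 (0.0600), and normoxia SPP1 replicate 1 (0.0565) or 3 (0.0566). EIF4A2 levels moved with the libraries' composition over the 37 libraries, with a Pearson r of 0.71 to the share of the 10 most abundant IDs and -0.67 to the TMM factor. EIF1 had 0.58 and -0.68, PABPC1 0.55 and -0.52, EEF1A1 0.55 and -0.50, and EEF2 0.44 and -0.43. For EEF1B2 the values were 0.16 and -0.20, and for EIF5A -0.45 and 0.36. The part of composition in the results of these members was not tested. EIF4A1, its close relative, was at 0 counts throughout, so the ratio of the 2 helicases could not be formed.

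PABPC1, the poly(A)-binding protein, had the widest gap to naive among the 3 members with the most counts. The naive libraries had 744 and 378 CPM, from 762 and 290 counts. The second of them had the lowest total count of all 37 libraries, 631574. The lowest exposed library, in medium, had 1062 CPM, so every one of the 35 exposed libraries lay above both naive libraries. The medium libraries reached 2738 with a median of 1359, the cells libraries spanned 1721 to 3266 (median 2492) and the washed libraries 1333 to 3424 (median 2267). Mean levels were 1473 ± 460 CPM (SD, n = 11) in medium, 2399 ± 542 (SD, n = 12) in cells and 2375 ± 621 (SD, n = 12) in washed. PABPC1 rose 2.66-fold in medium (log2 1.41, SE 0.25, edgeR adjusted p = 5.94e-05), 4.19-fold in cells (log2 2.07, SE 0.27, adjusted p = 2.90e-07) and 4.12-fold in washed (log2 2.04, SE 0.27, adjusted p = 3.14e-07). Of all IDs, 15.3%, 14.4% and 13.2% had every library of medium, cells or washed, each taken alone, above both naive libraries. The share with all 35 exposed libraries above naive was not counted. The PABPC1 calls against naive held in every alternative run. Leaving out a naive library moved the log2 fold change to 0.99 and 2.05 in medium, to 1.66 and 2.72 in cells and to 1.66 and 2.71 in washed.

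PABPC1 was higher still in both forms of contact. It was 1.58-fold higher in cells than in medium (log2 0.66, SE 0.12, edgeR adjusted p = 4.53e-05) and 1.55-fold higher in washed than in medium (log2 0.63, SE 0.12, adjusted p = 5.19e-05). With total-count scaling the second fell to 0.34 and remained called (adjusted p = 0.0232). Washed and cells differed by -0.03, with a 95% interval from -0.27 to 0.22.

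**Figure D2:**
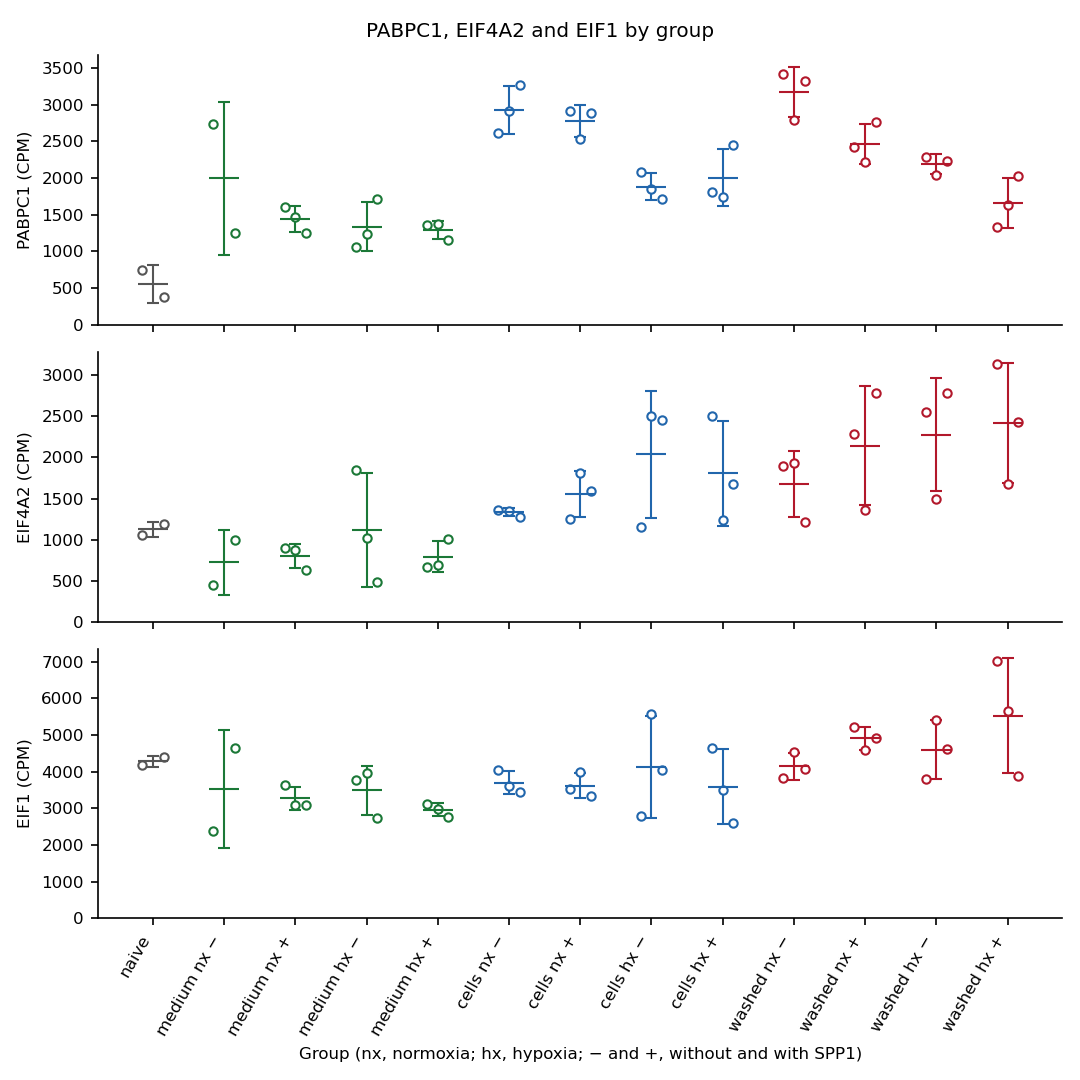
CPM (y axis, TMM-scaled) of PABPC1, EIF4A2 and EIF1 in each of the 37 libraries by group (x axis), with points for libraries and lines for the mean and SD. PABPC1 is lowest in naive at 744 and 378 CPM, EIF4A2 is mostly lower in medium than in cells and washed, and EIF1 ranges overlap between modes.

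EEF1A1, the carrier of aminoacyl-tRNA, behaved like PABPC1 towards naive, from far fewer counts. Both naive libraries held 12 counts (11.7 and 15.6 CPM). The medium libraries ran from 22.6 to 49.0 CPM (median 31.6), cells from 31.3 to 77.3 (median 45.1) and washed from 25.0 to 67.9 (median 41.2). No exposed library reached down to naive. In medium, cells and washed, each taken alone, 15.3%, 14.4% and 13.2% of all IDs showed that order. EEF1A1 rose 2.49-fold in medium (log2 1.32, SE 0.38, edgeR adjusted p = 0.00704), 3.34-fold in cells (log2 1.74, SE 0.38, adjusted p = 0.000605) and 3.17-fold in washed (log2 1.66, SE 0.38, adjusted p = 0.000765). The medium call was lost without naive replicate 1 (adjusted p = 0.0951) or 2 (0.0622), and the other 2 held in all 22 alternatives.

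Between medium and contact, the difference of EEF1A1 was smaller. It was 1.34-fold higher in cells than in medium (log2 0.42, SE 0.17, edgeR adjusted p = 0.0375), a call lost in 15 of 31 alternatives. It was lost without the 4 libraries apart on the second component (0.0840) and without the 2 medium libraries apart on the first (0.0764). RLE scaling gave 0.0792, total counts 0.230, all IDs with a count 0.311 and DESeq2 0.0657. Single libraries whose removal ended it were medium normoxia SPP1 replicate 1 (0.0618) and 2 (0.0695), medium hypoxia SPP1 replicate 2 (0.0689), medium normoxia without SPP1 replicate 2 (0.103) and 3 (0.0504), medium hypoxia without SPP1 replicate 3 (0.0614), cells hypoxia SPP1 replicate 1 (0.0622), cells hypoxia without SPP1 replicate 2 (0.0729) and cells normoxia SPP1 replicate 2 (0.0759). Washed against medium gave 0.34 (adjusted p = 0.0813), and 0.06 with total counts. This difference was called without the 4 libraries apart on the second component (0.0429), and without washed hypoxia without SPP1 replicate 2 (0.0327), washed normoxia SPP1 replicate 2 (0.0369) or medium normoxia SPP1 replicate 3 (0.0475).

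EEF1B2, EEF1D and EEF1G form the complex that recharges EEF1A1. No difference of EEF1B2 between modes was called. Its means were 15.8 ± 3.90 CPM (SD, n = 2) in naive, 17.2 ± 5.35 (SD, n = 11) in medium, 18.0 ± 5.50 (SD, n = 12) in cells and 18.2 ± 5.77 (SD, n = 12) in washed. The largest of its 6 mode differences was 0.19 on the log2 scale, washed against naive, with a 95% interval from -0.66 to 1.05. At 4 to 33 counts per library, changes within that interval remain compatible with the data. EEF1D, with 1 naive count, 13 in medium, 9 in cells and 13 in washed, could not be tested, and EEF1G had none.

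EEF2, the translocase, had 27.3 CPM in both naive libraries, from 28 and 21 counts. Medium ran from 14.8 to 49.4 CPM, cells from 22.7 to 77.3 and washed from 11.5 to 72.4, so the modes overlapped throughout. EEF2 rose 1.48-fold from medium to washed (log2 0.57, SE 0.23, edgeR adjusted p = 0.0362). The same step to cells was 0.54 (SE 0.23, adjusted p = 0.0521), and washed against cells was 0.03 (95% interval -0.42 to 0.48). The washed call was lost in 11 of 31 alternatives. The values were 0.0604 for RLE scaling, 0.300 for total counts, 0.0839 with all IDs, 0.0522 with DESeq2 and 0.0506 with only medium and washed libraries fitted. It was lost without medium normoxia SPP1 replicate 1 (0.0680), medium normoxia without SPP1 replicate 2 (0.167), medium hypoxia without SPP1 replicate 3 (0.0605), washed normoxia without SPP1 replicate 1 (0.0593), washed hypoxia without SPP1 replicate 3 (0.150) and washed normoxia SPP1 replicate 3 (0.0855).

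The cells difference of EEF2 was called in 9 of 31 alternatives. It was called without the 2 medium libraries apart (adjusted p = 0.0169) and with only cells and medium libraries fitted (0.0270). It was called without medium hypoxia without SPP1 replicate 1 (0.0378), cells hypoxia without SPP1 replicate 1 (0.0216), medium normoxia SPP1 replicate 2 (0.0451), cells hypoxia SPP1 replicate 2 (0.0402) or 3 (0.0496), medium normoxia without SPP1 replicate 3 (0.0190) and cells normoxia without SPP1 replicate 3 (0.0464).

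**Figure D3:**
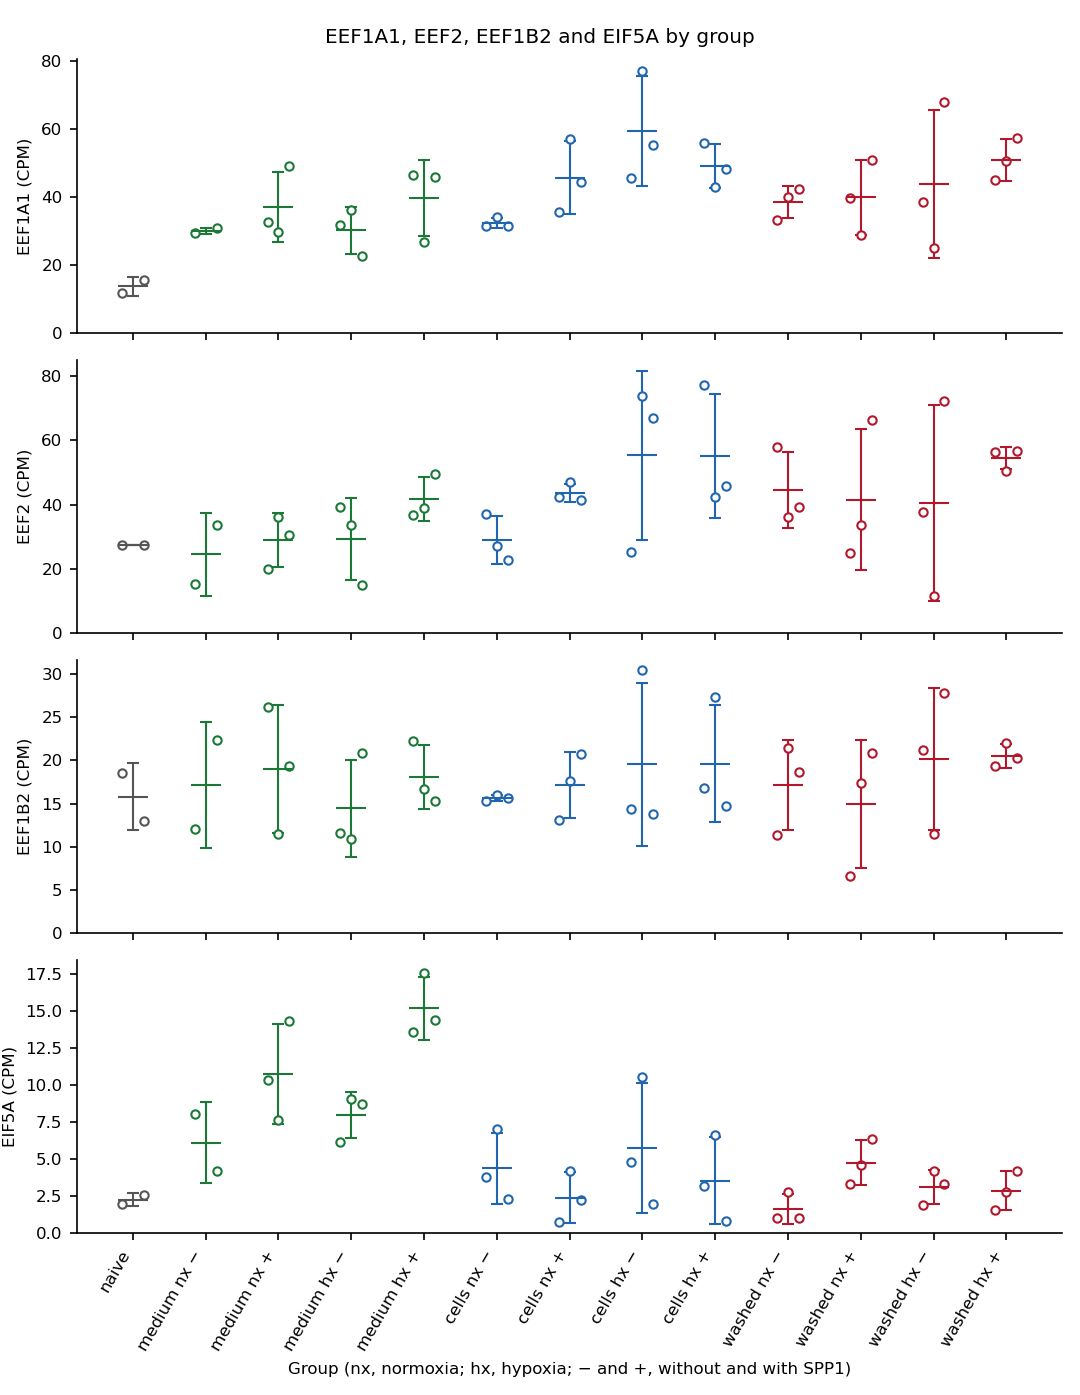
CPM (y axis, TMM-scaled) of EEF1A1, EEF2, EEF1B2 and EIF5A in each library by group (x axis), with points for libraries and lines for the mean and SD. EEF1A1 is lowest in naive at 11.7 and 15.6 CPM, EEF1B2 shows no step between modes, and EIF5A is highest in medium from 6 to 19 counts per library.

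EIF5A, the factor that eases slow peptide bonds, went the other way between modes. It had 2 counts in each naive library, 6 to 19 in medium, 1 to 9 in cells and 1 to 7 in washed. The medium hypoxia SPP1 group was highest, at 14, 19 and 16 counts. Fitted log2 fold changes against medium were -1.29 in cells (SE 0.32, edgeR adjusted p = 0.00104) and -1.63 in washed (SE 0.34, adjusted p = 9.44e-05). In CPM these groups stood at 10.4 ± 4.08 (SD, n = 11) in medium, 4.02 ± 2.87 (SD, n = 12) in cells and 3.10 ± 1.59 (SD, n = 12) in washed. Against naive, EIF5A was 4.04-fold higher in medium (adjusted p = 0.0315), and this call was lost without naive replicate 1 (0.174) or 2 (0.162), with all IDs (0.111) and with DESeq2 (0.0545). As it passed the filter through medium, these values carry no weight for the group.

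The next question was whether the oxygen the RAW264.7 cells had been kept in went with the factors. PABPC1 had an estimate below 0 after hypoxia in each mode, without passing the threshold in any one of them, and no other member was called. In medium that estimate rested on 1 normoxia library and was -0.01 without it. In cells, the normoxia libraries had 2534 to 3266 CPM with a median of 2902 and the hypoxia libraries 1721 to 2450 with a median of 1833. All 6 hypoxia libraries were below all 6 normoxia libraries, an order that 2.18% of all IDs showed. The PABPC1 log2 fold change in cells was -0.56 (SE 0.17, edgeR adjusted p = 0.0583). It was called with DESeq2 (0.0418), without the 2 medium libraries apart (0.0369), with only cells libraries fitted (0.0217) and without cells hypoxia without SPP1 replicate 1 (0.0454). In washed, normoxia libraries ran from 2218 to 3424 CPM (median 2776) and hypoxia libraries from 1333 to 2293 (median 2033), so that the arms overlapped at their ends. The change there was -0.55 (SE 0.17, adjusted p = 0.414).

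In medium, the 5 normoxia libraries had 2738, 1254, 1602, 1466 and 1251 CPM and the 6 hypoxia libraries 1062 to 1709 with a median of 1298. The arms overlapped, with normoxia without SPP1 replicate 2 at 2738 far above the rest. PABPC1 changed by -0.37 (SE 0.18, edgeR adjusted p = 0.669), and by -0.01 without that library. No difference of the hypoxia effect on PABPC1 between modes was called, with -0.19 for cells minus medium (95% interval -0.69 to 0.31), -0.19 for washed minus medium (-0.69 to 0.31) and 0.00 for washed minus cells (-0.48 to 0.49). Calls for oxygen among all IDs were 0.077% in medium, 3.62% in cells and 0.0385% in washed, with 0 of the 7 members in each. Without adjustment, 1, 3 and 1 of the 7 members had a p under 0.05, beside 7.36%, 17.9% and 8.2% of all IDs. In medium and washed this was PABPC1. In cells these were PABPC1, which was lower, and EEF1A1 (log2 0.49) and EEF2 (0.64), which were higher. EEF1A1, EEF2, EIF4A2 and EIF5A had estimates above 0 in all 3 modes, none called. The median log2 fold change of the 7 members, EIF5A included, was 0.05 in medium, 0.42 in cells and 0.16 in washed. That of all IDs was 0.02, 0.05 and 0.02. How many of all IDs kept the same sign in all 3 modes was not counted.

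A comparison averaged over the 3 modes was added after these values had been seen, so its adjusted p cannot be read as that of a planned test. There PABPC1 was 1.41-fold lower after hypoxia (log2 -0.49, SE 0.10, edgeR adjusted p = 0.00364), and 6.05% of all IDs were called, 3.39% lower. PABPC1 remained called in all 42 alternatives, which reuse these libraries, with log2 fold changes from -0.56 to -0.36. The highest adjusted p came without medium normoxia without SPP1 replicate 2, the library far above the rest in medium. In CPM, the exposed normoxia libraries averaged 2493 ± 703 (SD, n = 17) and the hypoxia libraries 1729 ± 411 (SD, n = 18). The other 6 members had log2 changes from 0.05 (EIF1) to 0.38 (EEF2), all above 0 and none called. The median of the 7 members, EIF5A included, was 0.27 and that of all IDs 0.03. EIF4A2 had 0.34 (adjusted p = 0.185), so that EIF4A2 and PABPC1 had estimates of opposite sign.

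**Figure D4:**
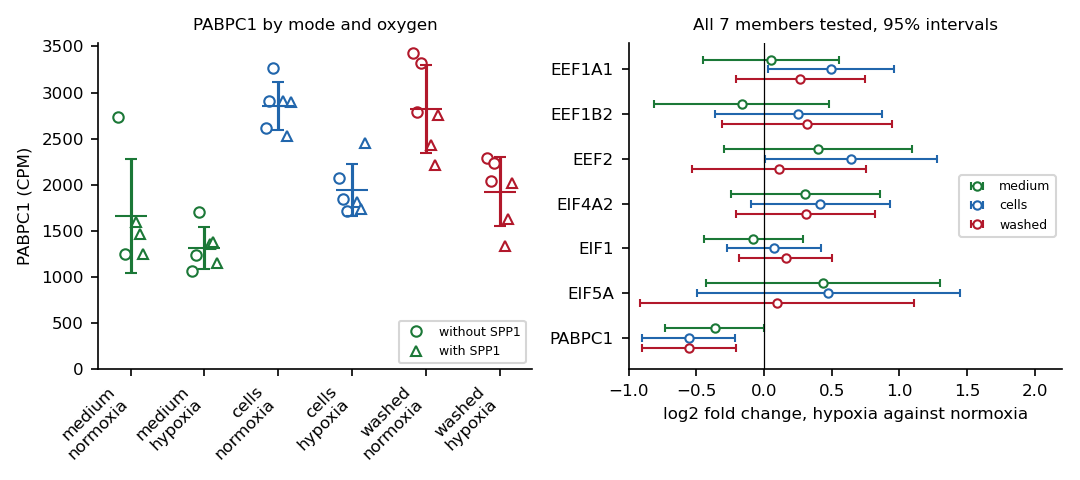
Left, PABPC1 CPM (y axis) of each exposed library by mode and oxygen (x axis), with circles for no SPP1, triangles for SPP1 and lines for the mean and SD. Right, log2 fold change of hypoxia against normoxia (x axis, 95% interval) of the 7 members in each mode. PABPC1 has estimates below 0 in all 3 modes, -0.37, -0.56 and -0.55. EEF1A1, EEF2, EIF4A2 and EIF5A have estimates above 0 in all 3. Without normoxia without SPP1 replicate 2, the medium estimate of PABPC1 was -0.01.

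The last question was whether SPP1 given to the RAW264.7 cells changed the factors. No member was called for SPP1 in medium, cells or washed, where 0.25%, 0% and 0.0193% of all IDs were called. Without adjustment, edgeR gave a p under 0.05 to 1 member, PABPC1 in washed, and to 478, 87 and 527 of all IDs in the 3 modes. DESeq2 called 0 members in each. PABPC1 in washed had 2041 to 3424 CPM without SPP1 (median 2542) and 1333 to 2760 with SPP1 (median 2121), and the arms overlapped (log2 -0.38, SE 0.17, adjusted p = 0.426). In medium EIF5A had 4.19 to 9.06 CPM without SPP1 and 7.64 to 17.6 with it (log2 0.86, SE 0.43, adjusted p = 0.550). For EEF1A1, EEF1B2, EEF2, EIF4A2 and EIF1, the SPP1 estimates in medium, cells and washed lay between -0.18 and 0.37 on the log2 scale. The widest 95% interval among them, for EEF2 in medium, ran from -0.32 to 1.07, so changes within it remain compatible with the data. No difference of an SPP1 effect between modes was called.

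Over all 13 groups, 4 of the 7 members differed in the edgeR F test (EEF1A1, adjusted p = 0.0100, EIF4A2, 0.000383, EIF5A, 0.00183, and PABPC1, 3.10e-07), beside 53.6% of all IDs. Over the 12 exposed groups 3 did (EIF4A2, EIF5A and PABPC1), beside 43.5%. EIF5A, kept by the filter through medium alone, carries no weight in these counts. The EEF1A1 call over 13 groups was lost with total counts (0.0541), with all IDs (0.121) and without naive replicate 1 (0.0683). EIF1, at 0.0644 over 13 groups and 0.0594 over 12, was called in both without the 2 medium libraries apart (0.0239 and 0.0212). The same held without cells hypoxia without SPP1 replicate 1 (0.0299 and 0.0269) or 2 (0.0263 and 0.0239), cells hypoxia SPP1 replicate 1 (0.0354 and 0.0327), washed hypoxia without SPP1 replicate 1 (0.0463 and 0.0417), medium normoxia without SPP1 replicate 3 (0.0114 and 0.00973) and replicate 3 of washed hypoxia SPP1 (0.0200 and 0.0177). In the order of group means, PABPC1 was highest in washed normoxia without SPP1 at 3179 ± 340 CPM (SD, n = 3), followed by cells normoxia without SPP1 at 2933 ± 324 (SD, n = 3) and cells normoxia SPP1 at 2779 ± 213 (SD, n = 3), and lowest in naive at 561 ± 259 (SD, n = 2). Of its 12 pairs of neighbours only naive and the group next to it did not overlap. EIF4A2 was highest in washed hypoxia SPP1 at 2416 ± 731 CPM (SD, n = 3) and lowest in medium normoxia without SPP1 at 722 ± 393 (SD, n = 2). Its neighbours overlapped except cells normoxia without SPP1 and naive. EEF1A1 was highest in cells hypoxia without SPP1 at 59.4 ± 16.2 CPM (SD, n = 3), and its neighbours overlapped down to naive. For EIF1, EEF2, EEF1B2 and EIF5A every pair of neighbours overlapped. The share of all IDs with such gaps between neighbours was not computed, so the gaps are description only.

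The members did not vary as a single block. Over the 37 libraries, which share depth and composition within each library, the Pearson r of log2 CPM was 0.68 between EIF4A2 and EIF1, 0.66 between EEF1A1 and EEF2 and 0.65 between EEF2 and EIF4A2. After group means were taken out these were 0.52, 0.64 and 0.73. PABPC1 ran opposite to both initiation factors inside groups, at -0.66 with EIF1 and -0.43 with EIF4A2, although over all libraries the values were -0.07 and 0.24. EIF5A and EIF4A2 had -0.54 over all libraries. The 2 IDs outside the members that were most like their mean pattern were ENSG00000112306.8 (r = 0.89) and ENSG00000228224.3 (r = 0.89), among 1746 IDs with a mean of at least 50 CPM. Their names are not given in the sources used here.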

How the data were processed

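RNA of 37 splenocyte libraries was measured by QuantSeq 3′ sequencing. How much RNA of RAW264.7 cells the cells and washed libraries carry was not tested. The authors trimmed reads with bbduk, used STAR 2.7.10b for alignment to GRCh38 and featureCounts of Rsubread 2.0.3 for counting, and deposited raw counts. Annotation release and the use of molecular identifiers in the counting are not given in the sources used here, so counts may include PCR copies, and mouse reads were placed on human genes. The labels set a minimum RNA integrity and also quote a range reaching below it, and no value per library was used here. Per the series text, experiments were repeated independently. Which libraries came from separate cultures is not labelled, and p-values measure the spread between libraries only.

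Counts were analysed with edgeR 4.0.16 in R 4.3.3. IDs were kept by filterByExpr (minimum count 10), scaled by TMM and fitted with a mean per group. Quasi-likelihood F tests were adjusted by Benjamini-Hochberg over 5193 IDs, SEs came from the F statistic, and CPM used TMM-scaled totals. Floors used 3 counts. The pipeline was tested on simulated data. All 10 members are named by rule, besides the 2 IDs most like their mean. Members, lists and comparisons were chosen with earlier results of these data known. Alternatives were RLE or total-count scaling, no filter, a replicate block, DESeq2 1.42.0, fits of only the compared groups, and libraries left out. A list of other translation factors and cell type markers could not be matched to the IDs and were not run.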

Additional observations from a re-analysis of the deposited data

Results flagged for a closer look

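By Dixon's test, 6 values, from 5 libraries, lay far from the other libraries of their arm, out of 84 sets searched, and chance alone flags about 1 in 20 sets. PABPC1 in medium normoxia was 2738 CPM in the library without SPP1, replicate 2, with the nearest of the other 4 libraries at 1602. EEF1A1 in medium normoxia was 49.0 CPM in SPP1 replicate 3 (nearest 32.5). In cells hypoxia, EEF1A1 was 77.3 CPM in the library without SPP1, replicate 2 (nearest 55.8). That library also had EEF1B2 at 30.4 CPM in the cells arm without SPP1 (nearest 16), and it is one of those apart on the second principal component. In the washed arm with SPP1, EEF1B2 was 6.63 CPM, or 4 counts, in normoxia replicate 1 (nearest 17.4), another library apart on that component. EEF2 in the cells arm with SPP1 was 77.3 CPM in hypoxia replicate 1 (nearest 47.0).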

How the results depend on the processing

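Over 22 comparisons, 618 of 629 alternative counts of members called, EIF5A included, stayed within 1.5 times of the reported count. Many of these comparisons had a reported count of 0, and a change from 3 members to 2 also lies within that limit. Washed against naive stayed within it in all 22 alternatives, although EIF4A2 was lost in 14 of them. None of 925 alternative values changed direction, for the 33 member results with an unadjusted p under 0.05 or a call in any alternative. Results picked in this way were unlikely to change direction. Medium against naive ranged from 1 to 3 members when a library was left out, with 1 (PABPC1) without either naive library. Washed against medium fell from 5 to 3 with total counts only. Washed against cells ranged from 0 to 1 (EIF1) when a library was left out. Hypoxia against normoxia in cells gave 1 member (PABPC1, lower) with DESeq2, without the 2 medium libraries apart on the first component and with only the groups compared, and 0 to 1 when a library was left out. With the replicate number as a block, washed against naive had 2 members in place of 3, and no other comparison changed its count. Deviations from group means had a mean correlation of 0.00798 in 187 same-numbered pairs, the lowest being -0.477, and of -0.0038 in different-numbered pairs. Of 35 libraries, 16 correlated best with their own number, out of 3 numbers. These values do not settle whether the numbers mark a pairing or a batch. The ratio of EIF4A1 to EIF4A2 was not run because EIF4A1 had 0 counts. EEF1B2, EEF1D and EIF5A rest on few counts, where 3 counts are 2.24 to 4.75 CPM, and EEF1G and EIF4A1 on none. The cause of these changes was not tested.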
